A study of Mus musculus with 14 samples.

Results

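The transcription factors described here are *Elf5*, *Ehf* and *Elf3* of the ETS family, the 4 nuclear factor I genes *Nfia*, *Nfib*, *Nfic* and *Nfix*, and *Gata3*, *Cebpb* and *Bcl6*. They were chosen by name as factors of the mammary alveolar lineage and looked up in the exon and intron expression tables of 2 lactating mice. Of the 10 factors, 9 had a row among the 20515 genes with a usable symbol. *Cebpb* matched no row and was not analysed here. RefSeq gives *Cebpb* a single exon, and 1.19% of 3949 RefSeq genes with 1 exon had a row, compared with 90.4% of 22229 genes with several exons.

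The study asked how the *Wap* super-enhancer, a cluster of enhancers that drives the milk protein gene *Wap*, acts on its own promoter and on that of the neighbouring gene *Tbrg4*. Both mice were wt/Wap-Tbrg4 females on day 10 of lactation (L10), with one wt allele and one allele in which a CRISPR-Cas9 deletion made in C57BL/6 zygotes placed the *Wap* regulatory region and promoter on the body of *Tbrg4*. Total RNA of whole mammary gland was sequenced, and expression is given as FPKM, a count of fragments per kilobase of feature, for exons and for introns. How the FPKM were scaled between the libraries is not stated. The mice share 1 genotype and 1 stage, so values are given per mouse and as mean ± SD (n = 2) with no test, and depth is unknown.

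In the mammary gland, prolactin signals through STAT5 in luminal cells, and alveolar cells differentiate into milk-secreting cells during pregnancy. ELF5 is needed for this differentiation, GATA3 maintains the luminal lineage, C/EBPβ acts in epithelial growth and differentiation, and BCL6 is a zinc finger repressor. NFI proteins bind DNA as dimers and can act with STAT5 at milk protein genes.

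The gland was checked through its markers before the factors were compared. The 5 alveolar markers, among them *Csn2* and *Wap*, summed to 353494 exon FPKM in mouse 1 and 939415 in mouse 2. The caseins differed most, with *Csn2* at 108555 and 481937, *Csn1s1* at 48052.1 and 150367.8 and *Csn3* at 15499.3 and 64070.4. *Wap* stood at 172934.6 and 234774, and *Lalba* was slightly lower in mouse 2, at 8453.5 and 8265.4. The 5 luminal epithelial markers summed to 333.4 and 202.8. Of these 5, 4 were lower in mouse 2, compared with 55.4% of 9845 genes whose mean exon FPKM reached 1. The 10 highest genes held 79.5% and 90.6% of the summed exon FPKM. Since the tissue was sequenced as a whole, fewer cells of a type and less RNA per cell cannot be told apart. The scaling total of the FPKM is not given, and across genes the ratio between the mice moved with exon GC content (Spearman rho −0.659). What part either has in these marker sums was not tested.

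The 9 factors covered a wide range, with *Elf5* and *Ehf* at the top and *Bcl6* and *Elf3* at the bottom. A mean of 10 exon FPKM or more was reached by 5 of the 9 factors, *Elf5*, *Ehf*, *Nfib*, *Nfia* and *Gata3*, compared with 15.2% of all 20515 genes. Summed over the 9 factors, exon FPKM was 446.3 in mouse 1 and 446.5 in mouse 2, which was 0.0523% and 0.0250% of the exon FPKM of all genes.

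The sequences before the annotated starts of *Elf5* and *Bcl6* are shown because these are the factors with the highest level and with the lowest exon to intron ratio, and because both carry matches to motifs of factors active in the gland. They come from RefSeq on GRCm38.p6 and cover the 250 bases before each start, read on the strand of the gene. Capitals mark matches to TTGCNNAA, a C/EBP motif, in *Elf5*, and to TTCNNNGAA, the STAT5 motif, or AGGAAG, an ETS motif, in *Bcl6*.
Elf5 start 1, chr2:103411848-103412097, plus strand: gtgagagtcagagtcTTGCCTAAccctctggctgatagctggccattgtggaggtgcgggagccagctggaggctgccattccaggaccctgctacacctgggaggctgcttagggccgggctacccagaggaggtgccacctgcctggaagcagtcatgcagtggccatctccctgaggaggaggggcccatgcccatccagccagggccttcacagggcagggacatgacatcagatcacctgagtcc
Elf5 start 2, chr2:103423818-103424067, plus strand: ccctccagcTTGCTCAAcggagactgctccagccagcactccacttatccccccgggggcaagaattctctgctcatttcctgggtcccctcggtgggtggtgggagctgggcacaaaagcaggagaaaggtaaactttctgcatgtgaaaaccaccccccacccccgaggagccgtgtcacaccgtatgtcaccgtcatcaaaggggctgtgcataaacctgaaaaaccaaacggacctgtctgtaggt
Bcl6 start 2, chr16:23981284-23981533, minus strand: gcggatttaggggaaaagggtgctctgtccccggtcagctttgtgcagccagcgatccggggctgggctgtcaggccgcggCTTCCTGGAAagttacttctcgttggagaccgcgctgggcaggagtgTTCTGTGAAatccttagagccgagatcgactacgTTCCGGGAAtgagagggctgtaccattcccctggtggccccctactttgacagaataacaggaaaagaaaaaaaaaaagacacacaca

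The *Bcl6* window held 3 STAT5 matches, at 160, 114 and 80 bases before the start. Over 32851 windows of this length from 27025 genes, 7.02% held at least 1 match on either strand and 9 windows, or 0.0274%, held 3 or more. The first of these matches overlaps CTTCCT, the ETS motif on the other strand, which 29.5% of windows held. The window of the other *Bcl6* start, which overlaps an annotated exon, held 1 STAT5 match 110 bases before that start, in agcaaattagTTCTCAGAAttccagaggc.
Single STAT5 matches also lay 89 bases before the *Nfic* start, in tgtcggcgatTTCTTTGAAagttggatgc, and 147 bases before the second of the *Nfix* starts, in ccaggcgctcTTCCAGGAAcctttctgcc. Both *Elf5* windows held 1 C/EBP match, 228 and 234 bases before their starts, and 9.56% of all windows held one. All 4 *Nfix* windows held an ETS match, and all 4 overlap an annotated exon, as does the *Nfia* window. The windows of *Elf3*, *Gata3*, *Nfia* and *Cebpb* held no match to the STAT5, ETS or C/EBP motifs, and no factor window held AGATAA, bound by GATA factors, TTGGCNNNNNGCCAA, bound by NFI dimers, or TGACGTCA, the CRE motif. All windows held these at 9.99%, 0.0365% and 1.55%. A match is a run of letters and shows no binding, and promoter windows of *Ehf* and *Nfib* were not analysed here.

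*Elf5*, at chr2:103412098-103450989 on the plus strand of GRCm38, encodes the ETS factor of alveolar differentiation and had the highest mean of the 9 factors. Its exon FPKM was 185.8 in mouse 1 and 204.8 in mouse 2, a mean of 195.3 ± 13.4. These levels ranked 118 and 111 among all genes, above 99.4% and 99.5% of them. Introns of *Elf5* stood at 6.5 and 6.8 FPKM, 6.65 ± 0.212.
*Ehf*, the ETS factor of epithelia encoded close by at chr2:103263433-103303196 on the minus strand, had exon levels of 189.7 and 161.5 FPKM, 175.6 ± 19.9. Its introns stood at 6.4 and 6.9 FPKM, 6.65 ± 0.354. The 2 genes exchanged places between the mice, with an *Elf5* to *Ehf* exon ratio of 0.979 in mouse 1 and 1.27 in mouse 2, so their order did not hold beyond the spread of the mice.
Among all genes, *Ehf* was the closest to *Elf5* by Euclidean distance over the log2 exon and intron values of both mice, at 0.343. *Atp2b2*, a calcium pump of the plasma membrane, came next at 0.469, followed by *Plet1* at 0.627. The distance covers only 2 mice of 1 condition.

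*Elf3*, the other epithelial member of this ETS group, lies at chr1:135253574-135258472 on the minus strand and had exon levels of 1.2 and 0.7 FPKM, 0.95 ± 0.354. *Ehf* was 158 and 231 times as high as *Elf3* in the same mice. The introns of *Elf3* were listed at 0 in both mice, which at 1 decimal does not show that unspliced RNA was lacking. An exon value at or near 0 need not mean absent RNA either, since *Gapdh*, a gene used by every cell, was itself listed at 0.1 and 0.3 exon FPKM. This limit holds for every gene listed at 0 here.
The 23 other ETS genes were all lower than *Elf5* and *Ehf* in both mice. *Etv6*, a repressor, led them at 16.6 and 20.4 FPKM, followed by *Elk4* at 11.1 and 11.6 and *Ets2* at 9.6 and 10.0. *Elf5* was 11.2 and 10.0 times as high as *Etv6*. *Elk1*, *Etv4*, *Etv2*, *Spib* and *Fev* were listed at 0 in both mice. Of the exon FPKM summed over the ETS family, *Elf5* and *Ehf* together held 80.5% and 80.0%.

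**Figure D1:**
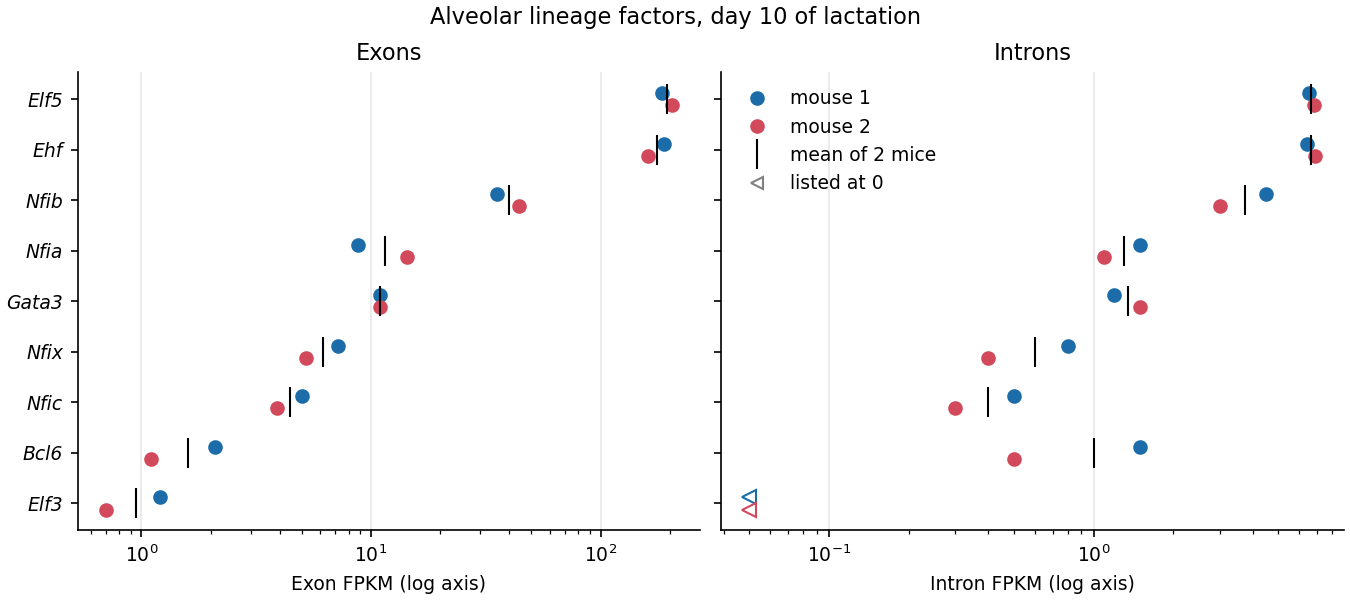
Exon FPKM (left) and intron FPKM (right) of the 9 factors on log axes, with one point for each of the 2 mice, a bar for the mean and open triangles for values listed at 0. *Elf5* and *Ehf* lie between 161.5 and 204.8 exon FPKM and *Elf3* between 0.7 and 1.2.

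*Nfib* was the most abundant NFI gene. It lies at chr4:82290173-82505779 on the minus strand, and exon levels were 35.5 and 44.0 FPKM, 39.75 ± 6.01, with introns at 4.5 and 3.0, 3.75 ± 1.06. *Nfib* made up 62.8% and 65.3% of summed NFI exon FPKM, and *Elf5* was 5.23 and 4.65 times as high as *Nfib*.
*Nfia*, at chr4:97581943-98118876 on the plus strand, had exon levels of 8.8 and 14.3 FPKM, 11.55 ± 3.89, and introns at 1.5 and 1.1, 1.3 ± 0.283. The *Nfib* to *Nfia* exon ratio was 4.03 and 3.08, and the levels did not overlap.
*Nfix*, at chr8:84704712-84800368 on the minus strand, had exon levels of 7.2 and 5.2 FPKM, 6.2 ± 1.41, and introns at 0.8 and 0.4. *Nfic*, at chr10:81396191-81427173 on the minus strand, had exon levels of 5.0 and 3.9 FPKM, 4.45 ± 0.778, and introns at 0.5 and 0.3. The lower *Nfix* mouse stood just above the higher *Nfic* mouse, so that these genes were separated by a margin of 2 deposited steps of 0.1.
Intron FPKM was lower in mouse 2 for each of these NFI genes, among them *Nfic*, whose mean of 0.4 was below the 0.5 needed for the intron comparison below. In exons, *Nfia* and *Nfib* were higher and *Nfix* and *Nfic* lower in that mouse. Over the genes compared in introns below, the median log2 ratio was 0.00. The share lower in mouse 2 was not counted, so the shared direction of the NFI introns has no background here and is not read as a trait of these genes. Across the factors, 5 were lower and 3 higher in introns in mouse 2. The intron values of *Nfix* and *Nfic* differ by only a few deposited steps of 0.1. Rescaling to an equal summed exon FPKM put all 4 NFI genes below 0 in log2 exon ratio. It moved the median log2 exon ratio of all genes from −0.08 to −0.90. Share of the NFI sum passed from 15.6% to 21.2% for *Nfia* and from 12.7% to 7.72% for *Nfix*, each written for mouse 1 and then mouse 2.

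*Gata3*, at chr2:9857078-9878600 on the minus strand, had an exon level of 11.0 FPKM in both mice. Introns stood at 1.2 and 1.5, 1.35 ± 0.212. The exon levels of *Gata3* lay inside the range of *Nfia*, and these genes were not separated. *Gata3* accounted for 94.8% and 93.2% of the exon FPKM of the GATA family. *Gata2* reached 0.5 and 0.7 FPKM, *Gata6* 0.1 in both mice, and *Gata1*, *Gata4* and *Gata5* were listed at 0. GATA3 also acts in T cells, and the 5 T cell markers with a row summed to 0.6 and 1.0 FPKM with none above 0.3, so these markers were near the lowest deposited step.

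*Bcl6*, at chr16:23965050-23988852 on the minus strand, had exon levels of 2.1 and 1.1 FPKM, 1.6 ± 0.707, and overlapped the range of *Elf3*. Its introns stood at 1.5 and 0.5 FPKM, 1.0 ± 0.707. The exon to intron ratio was 1.40 in mouse 1 and 2.20 in mouse 2, lower than in all but 0.556% and 2.16% of 9535 genes. Rounding of the deposited values allows ratios of 1.32 to 1.48 and of 1.91 to 2.56. The antisense gene *Gm31527* overlaps *Bcl6*, and reads of the pair cannot be told apart where the strand setting of the counting is not given.
Of the BCL6 paralogue and corepressors, *Ncor1* was highest at 22.8 and 23.9 FPKM, *Bcl6b* stood at 1.0 and 1.5, *Bcorl1* at 1.5 and 0.9, and *Bcor* was listed at 0.

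The order of the 9 factors by mean exon FPKM was *Elf5*, *Ehf*, *Nfib*, *Nfia*, *Gata3*, *Nfix*, *Nfic*, *Bcl6* and *Elf3*. Of the 8 neighbouring pairs, 5 were separated, with the lower mouse of one gene above the higher mouse of the next. *Elf5* and *Ehf*, *Nfia* and *Gata3*, and *Bcl6* and *Elf3* were not. Within a mouse, *Bcl6* was above *Elf3* both times, at ratios of 1.75 and 1.57, and 6 of the 8 pairs kept their order in both mice. Rescaling each mouse to an equal summed exon FPKM leaves these ratios as they are, but it weights the mice differently. Then 2 pairs were separated across mice and *Gata3* had a higher mean than *Nfia*. Rescaled on all but the 10 highest genes, 5 pairs were again separated and the order of the means was unchanged.
Beside these factors, *Stat5a*, which carries the prolactin signal, had 21 FPKM in both mice, so *Elf5* was 8.85 and 9.75 times and *Nfib* 1.69 and 2.10 times as high. *Stat5b* had 14.1 and 12.6. In the list of 20 other lineage factors, *Xbp1*, which directs the secretory apparatus, led at 346.5 and 508.5 FPKM, *Nr3c1*, the glucocorticoid receptor, stood at 59.8 and 78.8, and *Srebf1*, a regulator of lipid synthesis, at 68.3 and 30.4. Of the 5 other C/EBP genes, 3 had a row. *Cebpg* stood at 16.9 and 17.1, *Ddit3* at 4.0 and 1.1, and *Cebpe* was listed at 0. *Cebpa* and *Cebpd*, like *Cebpb*, had no row, so the highest gene of this family cannot be told.
Among 7 basal factors, *Sox10* had 37.5 and 20.0 FPKM, *Tcf7l2* 3.7 and 6.0, *Mef2c* 2.4 and 3.0, and *Lef1* was listed at 0. Myoepithelial markers summed to 124.6 in mouse 1 and 76.1 in mouse 2, with *Acta2* listed at 0.

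**Figure D2:**
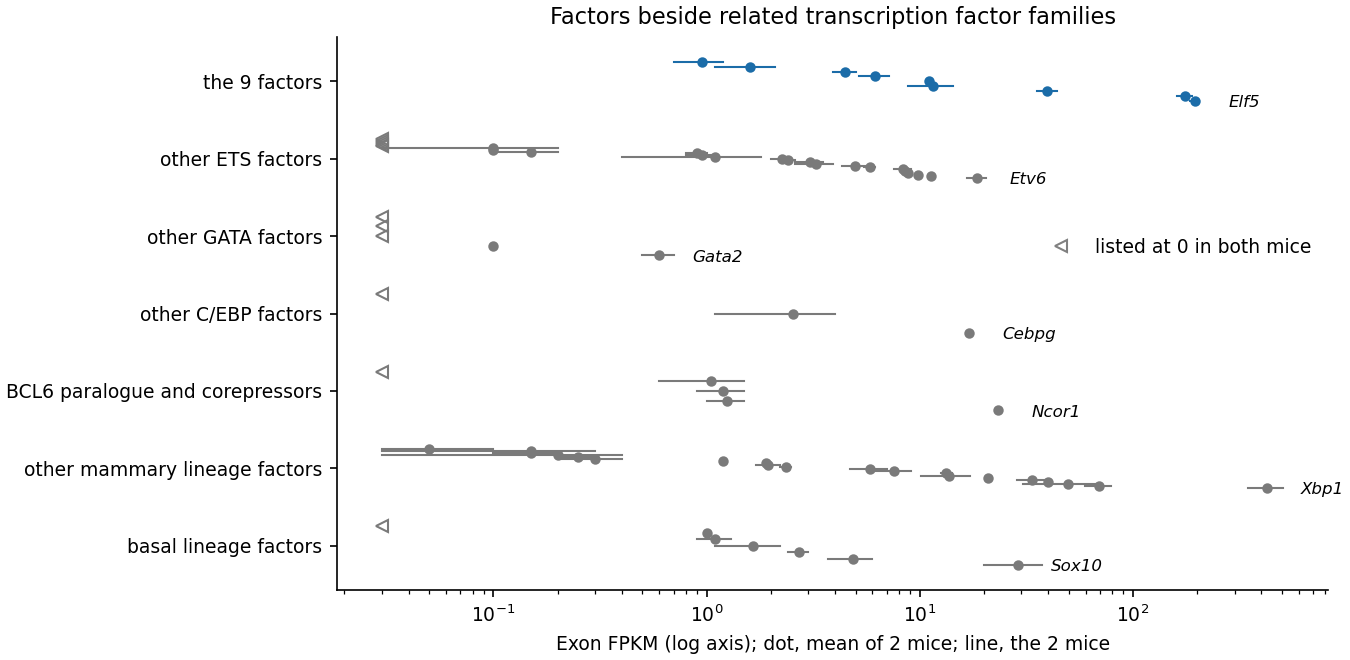
Mean exon FPKM on a log axis of the 9 factors and of the related lists, with a line between the 2 mice and open triangles for genes listed at 0 in both. Lines of genes at 0 in one mouse stop at the left of the plot. *Elf5* and *Ehf*, whose order differs between the mice, stand above every other ETS gene, and among all genes drawn *Xbp1* is the highest.

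The difference between the mice was taken as log2 of mouse 2 over mouse 1 on exon FPKM + 1, for genes whose mean reached 1, which left out *Elf3*. None of the 8 factors was more than 2-fold apart, compared with 5.90% of 9845 genes, and none was over 2-fold higher in mouse 1, compared with 4.82%. Log2 ratios were 0.64 for *Nfia*, 0.30 for *Nfib*, 0.14 for *Elf5*, 0.00 for *Gata3*, −0.23 for *Ehf*, −0.29 for *Nfic*, −0.40 for *Nfix* and −0.56 for *Bcl6*. The median of all genes was −0.08. When the mice were rescaled, all 8 ratios lay below 0, from −1.29 for *Ehf* to −0.33 for *Nfia*, the median of all genes moved to −0.90, and *Ehf*, *Nfic*, *Nfix* and *Bcl6* were more than 2-fold apart, 4 of 8 factors compared with 42.6% of all genes.
The ratio moved with base composition over the transcriptome, with a Spearman rho of −0.659 between the log2 ratio and exon GC content across genes of these 2 libraries. *Nfia*, *Nfib* and *Ehf* have exon GC contents of 42.7%, 43.4% and 42.5%, and *Nfic* and *Nfix* 57.4% and 58.6%. Set against a lowess fit to GC content, *Nfib* was left at 0.07, *Elf5* at 0.03 and *Gata3* at 0.04, while *Ehf* was left at −0.50, *Bcl6* at −0.44 and *Nfia* at 0.38. *Nfic* and *Nfix* passed to 0.27 and 0.25. What part base composition has in the ratios was not tested.

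**Figure D3:**
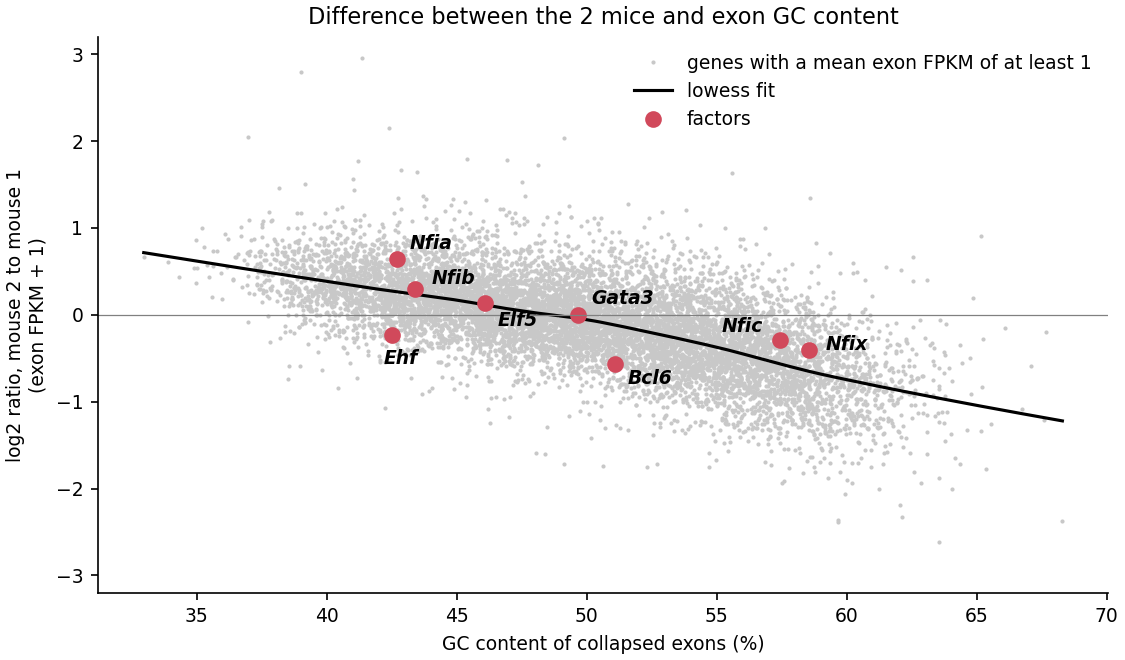
Log2 ratio of exon FPKM + 1, mouse 2 to mouse 1, against exon GC content in percent for genes whose mean exon FPKM reached 1 (grey), with the lowess fit (line) and 8 factors (red). *Nfib*, *Elf5* and *Gata3* lie within 0.07 of the fit, and *Ehf* and *Bcl6* lie 0.50 and 0.44 below it.

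Introns, which stand mainly for unspliced RNA, were compared on FPKM + 0.1 over 4220 genes with a mean of at least 0.5, among them 7 factors. *Bcl6* alone of these 7 was more than 2-fold apart, with a log2 ratio of −1.42, compared with 5.90% of genes in either direction and 3.53% higher in mouse 1. Corrected for intron GC content, its ratio was −1.34. *Nfix* had a ratio of −0.85, *Nfib* −0.57, *Nfia* −0.42, *Gata3* 0.30, *Ehf* 0.11 and *Elf5* 0.06. After rescaling all 7 lay below 0, from −2.29 for *Bcl6* to −0.68 for *Gata3*, and *Nfia*, *Nfib* and *Nfix* at −1.38, −1.60 and −1.68 were then also more than 2-fold apart. That made 4 of 7 factors compared with 42.2% of the 4220 genes, whose median log2 ratio had moved to −0.89.
Exons higher in mouse 2 with introns higher in mouse 1 were seen for *Nfia* and *Nfib*, 2 of the 7 factors, compared with 12.2% of 4130 genes, although after rescaling their exons were lower in mouse 2. The exon to intron ratio was 5.87 and 13.0 for *Nfia* and 7.89 and 14.7 for *Nfib*. This rescaling leaves it unchanged, since exons and introns of a mouse took the same factor. It was 28.6 and 30.1 for *Elf5*, 29.6 and 23.4 for *Ehf*, 9.17 and 7.33 for *Gata3*, 9.0 and 13.0 for *Nfix* and 10.0 and 13.0 for *Nfic*. Among these, *Elf5* and *Ehf* had the highest ratios in each mouse and *Bcl6* the lowest.

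Because introns are far longer than exons, the share of a gene's fragments that lay in introns was estimated by weighting each FPKM with its RefSeq length. This share was 90.3% and 80.8% for *Nfia*, whose introns span 527 kb, and 73.9% and 60.4% for *Nfib*, with 206 kb. The median of 9530 genes was 28.9% in mouse 1 and 31.9% in mouse 2. For the 1211 genes with introns at least as long as those of *Nfix* it was 64.8% and 61.2%.
*Bcl6* had shares of 72.8% and 63.0%, *Nfix* 60.8% and 51.7%, *Gata3* 38.3% and 43.7%, *Nfic* 28.2% and 23.2%, and *Ehf* 21.4% and 25.6%. For *Elf5* the share was 36.3% and 35.1%, but 16.6% and 15.9% with GENCODE M21 lengths. *Nfic* rose instead, to 44.3% and 38.0%, and *Gata3* to 44.3% and 49.8%. *Nfia* fell to 84.0% and 70.3%, *Bcl6* to 64.6% and 53.7% and *Ehf* to 17.2% and 20.8%. Between the 2 sets of lengths, 6 of the 8 mean shares differed by more than the SD of the mice. The authors counted on UCSC known genes, whose lengths were not used here. Long noncoding genes overlap *Nfia*, *Nfic* and *Nfix*, and *Lyl1*, on the opposite strand to *Nfix*, was listed at 0.9 and 0.2 exon FPKM. On the same strand as the factor, *Gm40208* overlaps *Nfia*, *2310067E19Rik* overlaps *Nfib* and *Mir1191b* overlaps *Nfic*. These had no row with a usable symbol, and strand cannot tell their reads from those of the factor.

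**Figure D4:**
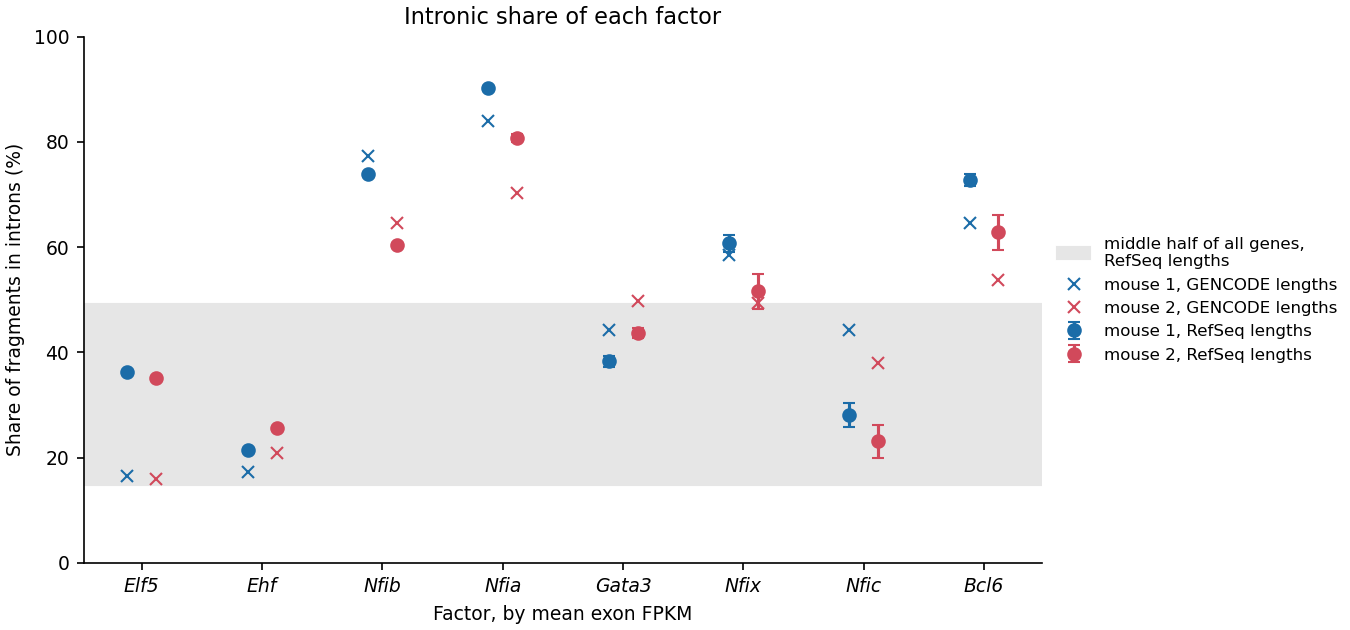
Estimated share in percent of the fragments of 8 factors that lay in introns, in mouse 1 (blue) and mouse 2 (red), with RefSeq lengths (dots, bars for the rounding of the deposited values) or GENCODE M21 lengths (crosses). The grey band is the range from the 25th to the 75th percentile of all genes, averaged over the mice. *Elf3*, with introns listed at 0, is not drawn. Of the 8 factors drawn, *Nfia* has the highest shares and *Ehf* and *Nfic* the lowest with RefSeq lengths.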

How the data were processed

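Total RNA libraries (TruSeq Stranded) of 2 wt/Wap-Tbrg4 L10 mammary glands were analysed, and 12 ChIP-seq samples of the series were not analysed here. The exon and intron FPKM values were made and deposited by the authors, who mapped reads to mm10 with STAR, counted them with HTSeq on collapsed exons of UCSC known genes and on the introns between them, and derived FPKM with DESeq2. Tool versions, the strand setting and the scaling total are not given in the sources used here. Values carry 1 decimal and no read counts could be recovered, so depth is unknown and precision rests on 2 mice, and the spread between them may be technical as well as biological.

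Of 20550 rows, 35 without a usable symbol were left out. The members and gene lists were chosen with earlier results of these data known. The text names all factors, the highest 3 of each list of related factors by mean exon FPKM, those listed at 0 in both mice, and the genes nearest to *Elf5* and *Nfib*. Single marker genes, *Stat5a*, *Stat5b*, *Gapdh* and *Lyl1* were named after their values were seen. Lengths and GC content came from RefSeq on GRCm38.p6, matching 99.6% of genes. The lowess fit used 30% of genes and was tested on simulated data. Alternative pseudocounts, filters, scalings and single mice were tried. GENCODE M21 lengths, the intron GC correction and the rescaling of intron ratios were added after seeing the data. The scripts ran in Python 3.11.15 with statsmodels 0.14.6, scipy 1.17.1, pandas 2.3.3 and numpy 2.4.6, and figures were drawn in matplotlib 3.10.9.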

Additional observations from a re-analysis of the deposited data

How the results depend on the processing

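The median exon FPKM of the 9 factors was 11.0 and moved to 9.16 when each mouse was rescaled to a summed exon FPKM of 1000000, and lay between 8.8 and 11.0 with one mouse at a time. Under that rescaling, which leaves the ratio of any 2 genes within a mouse as it was, 2 in place of 5 neighbouring pairs were separated across mice, the median log2 exon ratio moved from −0.12 to −1.03, and 4 in place of 0 factors were more than 2-fold apart. GC correction moved the median ratio to 0.053. With the mice rescaled on all but the 10 highest genes, the median exon FPKM was 11.0, the order was the same and 5 pairs were separated. Ratios between the mice were not taken under that setting. The median log2 exon to intron ratio was 3.21 and moved to 2.36 with a pseudocount of 1. The median rank percentile of 86.1 moved to 71.8 among genes with a mean of at least 1 and to 79.1 among those with at least 10, and ranged from 82.5 to 86.6 with one mouse at a time. Over all genes, 581 were more than 2-fold apart between the mice, compared with 1092 with a pseudocount of 0.1, 188 after GC correction and 4193 after rescaling. Leaving out a mouse or taking the geometric mean cannot move the level of a single gene past the spread of 2 mice. Medians over the factors can move past it. Exon FPKM at 8.8 and rank percentile at 82.5, both from mouse 1 alone, did so. Of the 90 other single-gene alternatives, 52 stayed within the spread of 2 mice or a log2 step of 0.1. These include 8 ratios centred on the median ratio of all genes, a shift too small to pass that step. They also include 18 levels rescaled on all but the 10 highest genes, which that setting hardly moved. The other 38 moved. The cause was not tested. Ratios between the mice could not be recomputed with one mouse left out. No paired analysis was possible because there is 1 group of mice.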

Other observations

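Other cell types of the gland gave further values. Adipocyte markers summed to 657.2 exon FPKM in mouse 1 and 743.9 in mouse 2, fibroblast markers to 161.7 and 147.2, macrophage markers to 98.1 and 56.7, and endothelial markers to 51.9 and 46.0. Members of a list did not all move alike. In mouse 2, 3 fibroblast markers were lower, among them *Col3a1* at 71.2 and 43.6, and 2 higher, among them *Dcn* at 42.9 and 78.4. Of the adipocyte markers, 2 were lower, among them *Plin1* at 7.8 and 2.6, and 4 higher, among them *Fabp4* at 501.7 and 564.0. B and plasma cell markers summed to 108.9 and 90.5, of which *Jchain*, the joining chain of secreted antibodies, held 107.4 and 89.3. Hormone-sensing luminal markers summed to 42.7 and 46.1, with *Ly6a* at 32.5 and 28.2 and *Esr1*, the estrogen receptor, at 10.1 and 17.3. *Pgr*, the progesterone receptor, stood at 0.1 and 0.2, *Foxa1* at 0.0 and 0.4, and *Prom1* was listed at 0.

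By the same distance over 4 log2 values, the genes nearest to *Nfib* were *Pnpla2*, a lipase of fat stores, at 0.319, *Rbm47*, an RNA-binding protein, at 0.322 and *Slc39a14*, a metal ion transporter, at 0.360.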
